A study of Mus musculus with 14 samples.

Results

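The 10 genes described here encode apolipoproteins, the protein components of plasma lipoproteins, together with the protein that loads lipid onto one of them. They are *Apob*, *Mttp*, *Apoa1*, *Apoa2*, *Apoa4*, *Apoc1*, *Apoc3*, *Apoe*, *Apoh* and *Apom*, taken as a named list from the 28022 genes of an RNA-seq count table, and all 10 were found in it. The table holds 14 libraries from 7 conditions, 2 libraries each, and all mouse material is of the strain C57BL/6J. Fib are mouse embryonic fibroblasts, and 2D-iHepSC are hepatic stem-like cells that were converted from such fibroblasts with lentiviral *Oct4* and *Hnf4α* and grown as a monolayer (2D-iHs in the study's text). 2D-iHepSCiEC are the same cells grown in a monolayer with induced endothelial cells (2D-iHEs). 3D-iHA are organoids of the hepatic cells alone in a collagen and Matrigel hydrogel (matched to the iHLOs of the study), and 3D-iHEA are such organoids with induced endothelial cells in the hydrogel (iHEAs). Adult-Liver and Fetal-Liver are whole tissue. The 8 culture libraries share the 2 transduced factors and, by the study's methods, a single medium with oncostatin M. The endothelial cells were converted with *ETV2* from the human fibroblast line HF1, so the co-cultures mix species, and human transcripts enter the mouse counts only through reads that matched the mouse genome. The libraries allow 3D to be set against 2D, cultures with endothelial cells against those without, and each against fibroblasts and liver.

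Lipoproteins carry cholesterol and triglyceride through blood in particles whose surface is built from apolipoproteins. In hepatocytes and enterocytes, ApoB is loaded with lipid by the microsomal triglyceride transfer protein MTP, the product of *Mttp*, while it enters the endoplasmic reticulum. ApoA1 is the main protein of high density lipoprotein, and the smaller apolipoproteins exchange between particles, where they serve as ligands of receptors or as activators and inhibitors of lipases. The liver makes all of them, the small intestine makes several, and ApoE is also made by macrophages, glia and fibroblast-like cells.

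On GRCm38 (GENCODE M21), *Apoa1* (chr9:46228580-46230466), *Apoc3* (chr9:46232933-46235636) and *Apoa4* (chr9:46240696-46243459) are neighbours, and *Apoc1* (chr7:19689481-19692660) and *Apoe* (chr7:19696109-19699188) form a second group. *Apob* lies at chr12:7977648-8016835, *Mttp* at chr3:138089854-138144968, *Apoa2* at chr1:171225054-171226379, *Apoh* at chr11:108343354-108414396 and *Apom* at chr17:35128997-35132050. The upstream sequences of 4 of them are printed because these genes carry the results. *Apob* and *Apoa1* were on in all 8 cultures, *Apoa4* differed most between 3D and 2D, and *Apoe* was lower in the cultures than in the fibroblasts of origin. They come from RefSeq promoter windows on GRCm38.p6, in which 8 of the 10 genes were matched (not *Apoc1* and *Apoc3*), and are cut at the base before the GENCODE gene start. Capitals mark matches to these motifs, searched on both strands: TATAAA, CAAAGNNCA (an HNF4 core), TTGCNNAA (C/EBP) and TCACNCCAC (a sterol regulatory element).
Apob chr12:7977427-7977647 (+): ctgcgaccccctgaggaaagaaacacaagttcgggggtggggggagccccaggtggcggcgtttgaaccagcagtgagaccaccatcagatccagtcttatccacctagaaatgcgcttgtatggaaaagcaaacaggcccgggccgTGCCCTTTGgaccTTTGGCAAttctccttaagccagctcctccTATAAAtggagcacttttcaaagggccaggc
Apoa4 chr9:46240594-46240695 (+): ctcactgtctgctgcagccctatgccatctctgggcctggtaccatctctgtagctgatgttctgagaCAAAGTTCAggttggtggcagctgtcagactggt
Apoa1 chr9:46228380-46228579 (+): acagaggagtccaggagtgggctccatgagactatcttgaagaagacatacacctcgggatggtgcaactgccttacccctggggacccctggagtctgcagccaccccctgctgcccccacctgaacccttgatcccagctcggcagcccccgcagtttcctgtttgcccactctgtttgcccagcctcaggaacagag
Apoe chr7:19699189-19699438 (-): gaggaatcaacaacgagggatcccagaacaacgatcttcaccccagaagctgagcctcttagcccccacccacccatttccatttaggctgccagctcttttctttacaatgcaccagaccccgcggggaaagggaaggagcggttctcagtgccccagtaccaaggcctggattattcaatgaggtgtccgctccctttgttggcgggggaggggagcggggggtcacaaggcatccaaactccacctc
The *Apob* window held 3 matches, an HNF4 core on the minus strand from -103 to -95, a C/EBP match on the minus strand from -90 to -83 and a TATA box from -60 to -55, counted from the RefSeq start. *Apoa4* held an HNF4 core from -182 to -174. *Apoh* (sequence not shown) held one from -93 to -85. *Apoa2* and *Apoe* have several windows, each counted from its own start. One *Apoa2* window held a TATA box from -212 to -207 and the other C/EBP matches from -164 to -157 and from -140 to -133. A downstream *Apoe* window (not shown) held overlapping TATA boxes on opposite strands, from -100 to -95 and from -96 to -91. The *Apoa1*, *Apom* and *Mttp* windows and the other *Apoe* windows, including the one shown, held no match. Of 32851 windows of 250 bases, 12.4% held TATAAA, 5.49% the HNF4 core, 9.56% the C/EBP motif and 1.05% the sterol element. A match is only a description of these letters.

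Total counts per library ranged from 20851489 to 35143325, so that 3 counts, used here as the floor of detection, stand for 0.0854 to 0.144 CPM, the unit used for counts scaled by the total of their library. The titles number the libraries of a condition 1 and 2, the descriptions call each of them replicate 1, and nothing says that they came from separate cultures or animals. The p-values therefore measure the spread between libraries, which may be technical. In the test of 3D against 2D each side pools 2 conditions, so its spread also holds the difference between those conditions. The label of the second 3D-iHEA library points to different samples, so it is used without a number. Of 7 hepatocyte markers, the number that stayed at or under 3 counts in both libraries was 1 in 2D-iHepSC, 6 in 2D-iHepSCiEC, 2 in 3D-iHA and 4 in 3D-iHEA, and the 7 together summed to 1.73 to 119.9 CPM in the cultures, against 240006 to 251021 CPM in adult liver. *Ttr*, at 94.9 CPM in 3D-iHA and 97.5 CPM in 3D-iHEA, made up most of the culture sum in 3D, and *Alb* was at 0.0906 to 3.34 CPM on average. *Serpina1a* had at most 3 counts in every culture library. Cholangiocyte markers summed to 1236 to 1770 CPM in the cultures, and 8 enterocyte markers to 50.5 to 72.3 CPM in 2D and 249.1 to 293.4 CPM in 3D. Mouse endothelial markers summed to 473.3 to 527.9 CPM in 2D and 1037 to 1568 CPM in 3D, also in 3D-iHA, to which no endothelial cells were added. The 6 genes of this list did not go together. *Kdr* had no count in 3D-iHEA, and *Pecam1* had at most 3 counts in each 2D-iHepSCiEC library. The sum is therefore not read as a measure of endothelial cells. The part of these other profiles in the values below was not tested. In bulk RNA, fewer cells that express a gene and less of its RNA per cell cannot be told apart.

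The 10 genes together held 0.0748% to 0.0767% of all counts in 2D, 0.11% to 0.119% in 3D, 0.0197% to 0.0213% in fibroblasts, 0.461% to 0.5% in fetal liver and 3.76% to 3.8% in adult liver. In each of the 8 culture libraries, *Apob* and *Apoa1* made up 97.7% to 98.8% of these counts. In adult liver, the same pair made up 24.6% to 25.4%, and *Apoe* alone 42.6% to 43.3%. Fibroblasts were the reverse of the cultures, with 92.2% to 93.9% of the counts from *Apoe*.

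**Figure D1:**
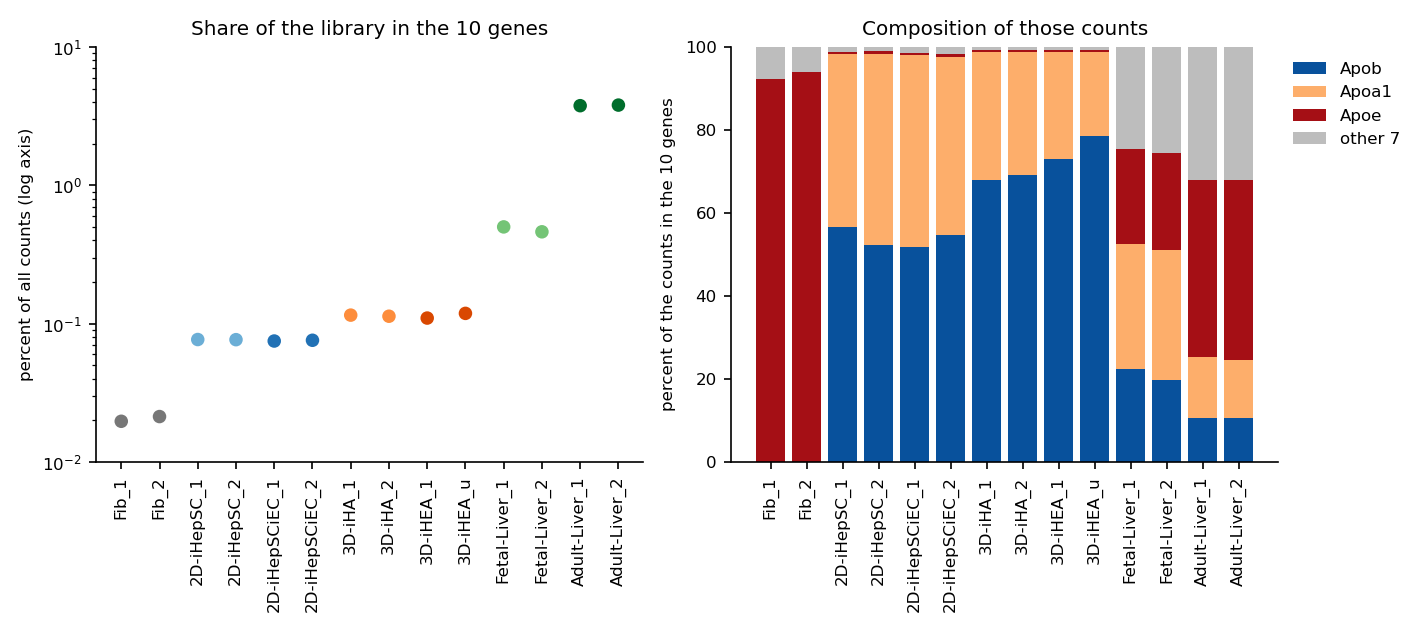
The left panel gives the percent of all counts that fell in the 10 genes in each of the 14 libraries on a log axis, and the right panel splits those counts into *Apob*, *Apoa1*, *Apoe* and the other 7 genes. The 8 culture bars are almost wholly *Apob* and *Apoa1*, and the *Apob* part is larger in the 4 libraries from 3D (68% to 78.5%) than in the 4 from 2D (51.7% to 56.6%).

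**Figure D2:**
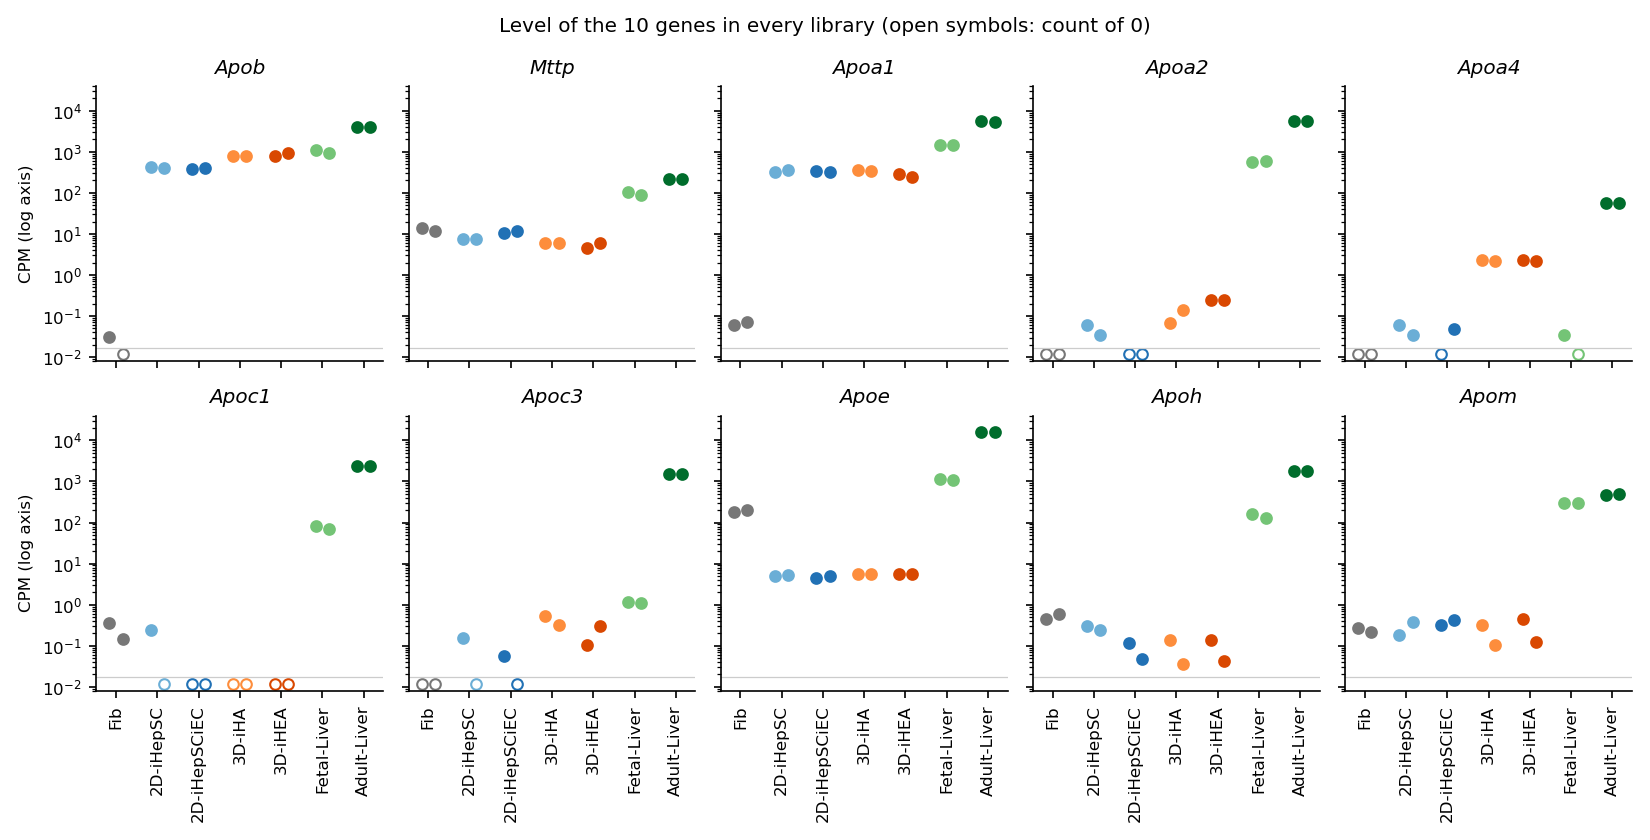
Each panel shows 1 gene, with CPM on a log axis and 1 point for each of the 2 libraries of a condition. Open symbols under the grey line are counts of 0. *Apob* and *Apoa1* lie far above fibroblasts in all cultures, *Apoa4* is at most 0.0606 CPM in 2D and at 2.15 to 2.36 CPM in 3D, and *Apoa2*, *Apoc1*, *Apoc3*, *Apoh* and *Apom* reach at most 0.52 CPM in any culture library.

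Comparisons were fitted in edgeR (quasi-likelihood test, TMM scaling), and a gene was called when its Benjamini-Hochberg adjusted p was under 0.05 over all genes tested. Of the 10 genes, 6 passed the filter on low counts among the 8 culture libraries (*Apob*, *Mttp*, *Apoa1*, *Apoa4*, *Apoe* and *Apom*). *Apoa2*, *Apoc1*, *Apoc3* and *Apoh* did not. The filter asks for a mean log2(count + 1) of at least 3, and *Apoa4*, at 0.896 in 2D and 5.97 in 3D, passed it only through the 3D libraries, so its place among the higher genes is no support for a count. Between the 4 libraries from 3D and the 4 from 2D, 2 of the 6 were called higher and 1 lower, where 75.9% of the 13409 genes tested were called, 38.7% higher and 37.2% lower. A count of 3 of 6 is thus no more than the background. The median log2 fold change of the 6 was -0.0009, against 0.01 over all genes tested.

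*Apob* encodes the structural protein of very low density lipoproteins and chylomicrons. It had 434.2 and 400.6 CPM in 2D-iHepSC, 386.8 and 413.5 CPM in 2D-iHepSCiEC, 782.8 and 780.3 CPM in 3D-iHA, and 798.8 and 930.6 CPM in 3D-iHEA. Every 3D library was above every 2D library, and the 2D libraries with and without endothelial cells overlapped. Fibroblasts held 1 and 0 counts. In 3D against 2D, *Apob* rose 1.98-fold, a log2 fold change of 0.99 (SE 0.06, adjusted p = 4.61e-08, edgeR). The increase was 0.88 (SE 0.07) for 3D-iHA against 2D-iHepSC and 1.09 (SE 0.07) for 3D-iHEA against 2D-iHepSCiEC. Fetal liver had 1124 and 915.1 CPM and adult liver 3939 and 4007 CPM, so all culture libraries but the second 3D-iHEA library were below both tissues, and that library was above the lower fetal library.

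*Mttp*, the partner of ApoB in lipid loading, did not follow it. It had 7.61 and 7.503 CPM in 2D-iHepSC, 10.2 and 11.9 CPM in 2D-iHepSCiEC, 5.93 and 5.93 CPM in 3D-iHA, and 4.44 and 6.15 CPM in 3D-iHEA. Every 3D library lay below every 2D library. *Mttp* was lower in 3D with a log2 fold change of -0.74 (SE 0.16, adjusted p = 0.00132, edgeR), and so was 3D-iHEA against 2D-iHepSCiEC with -1.09 (SE 0.15, adjusted p = 2.19e-05, edgeR). The decrease in 3D-iHA against 2D-iHepSC was smaller, -0.37 (SE 0.15, adjusted p = 0.0359, edgeR), and it lost its call without any 1 of the 4 libraries compared (adjusted p from 0.0872 to 0.116, edgeR). Fibroblasts, at 14.1 and 11.9 CPM, were above most cultures, and *Mttp* was lower in 2D-iHepSC than in fibroblasts by a log2 fold change of -0.81 (SE 0.12, adjusted p = 1.67e-05, edgeR). Fetal liver had 102.3 and 90.9 CPM and adult liver 214.5 and 221 CPM, above every culture library. The 5′ end of *Mttp* overlaps the opposite-strand gene *Trmt10a*, whose mean went from 14.4 and 13.9 CPM in the 2D conditions to 9.08 and 8.79 CPM in 3D. Whether counting used strand is not given in the sources used here, and the part of *Trmt10a* reads in the *Mttp* values was not tested.

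*Apoa1*, the main protein of high density lipoprotein, was at a similar level in 2D and in 3D-iHA. It had 318.9 and 350.9 CPM in 2D-iHepSC, 345.7 and 326.3 CPM in 2D-iHepSCiEC, 353.3 and 335.4 CPM in 3D-iHA, and 283.8 and 239.9 CPM in 3D-iHEA. Both 3D-iHEA libraries were below the other 6. In 3D against 2D, the log2 fold change was -0.17 (SE 0.11, adjusted p = 0.174, edgeR), and among 14 alternatives it was called in 1, without the first 3D-iHA library (-0.25, adjusted p = 0.0429, range 0.0429 to 0.572). In 3D-iHEA it was lower than in 2D-iHepSCiEC by a log2 fold change of -0.38 (SE 0.08, adjusted p = 0.000668, edgeR) and lower than in 3D-iHA by -0.42 (SE 0.08, adjusted p = 0.0147, edgeR). The latter call was lost without either 3D-iHA library (adjusted p = 0.176 and 0.0748, edgeR). These 2 comparisons share the 3D-iHEA libraries. Fibroblasts had 2 counts in each library, fetal liver 1501 and 1437 CPM, and adult liver 5610 and 5340 CPM.

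*Apoa4*, an apolipoprotein of chylomicrons made mainly by enterocytes and, in mice, also by the liver, was the member that differed most between 3D and 2D. The 2D libraries held 2, 1, 0 and 1 counts, and the 3D libraries 68 and 63 in 3D-iHA and 67 and 51 in 3D-iHEA. The groups did not overlap, and the 4 libraries from 3D were alike at 2.15 to 2.36 CPM. The fitted log2 fold change was 5.87 (SE 0.35, adjusted p = 3.19e-08, edgeR), which rests on 4 counts in 2D and on a gene that the 3D counts let through the filter. With no filter on low counts, it was 5.89 (adjusted p = 5.57e-10, edgeR). The ratio of the summed counts, scaled by library totals, was 67.4 with a 95% interval of 26 to 249.1 that covers counting error only. *Apoa4* was called higher in 3D-iHA against 2D-iHepSC and in 3D-iHEA against 2D-iHepSCiEC as well, with log2 fold changes of 5.43 (SE 0.46) and 6.64 (SE 0.56), and the same limit holds for these calls. Fetal liver held 1 and 0 counts, fewer than any 3D library, whereas adult liver held 1936 and 1973. Of the 8 enterocyte markers, *Vil1* (21.5 ± 4.13 CPM in 2D and 179.7 ± 14 CPM in 3D) and *Rbp2* (7.60 ± 1.28 and 45.6 ± 1.75 CPM, SD, n = 4 libraries each) made up most of the higher sum in 3D. *Cdx2* had means of 28.6 and 38.7 CPM and *Sis* of 2.38 and 3.56 CPM, *Fabp2*, *Alpi* and *Lct* stayed under 1 CPM, and *Cdx1* had 1 count in 2D and 0 in 3D. Their part in this result was not tested. A stricter filter on low counts left *Apoa4* out of the fits of the cultures.

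**Figure D3:**
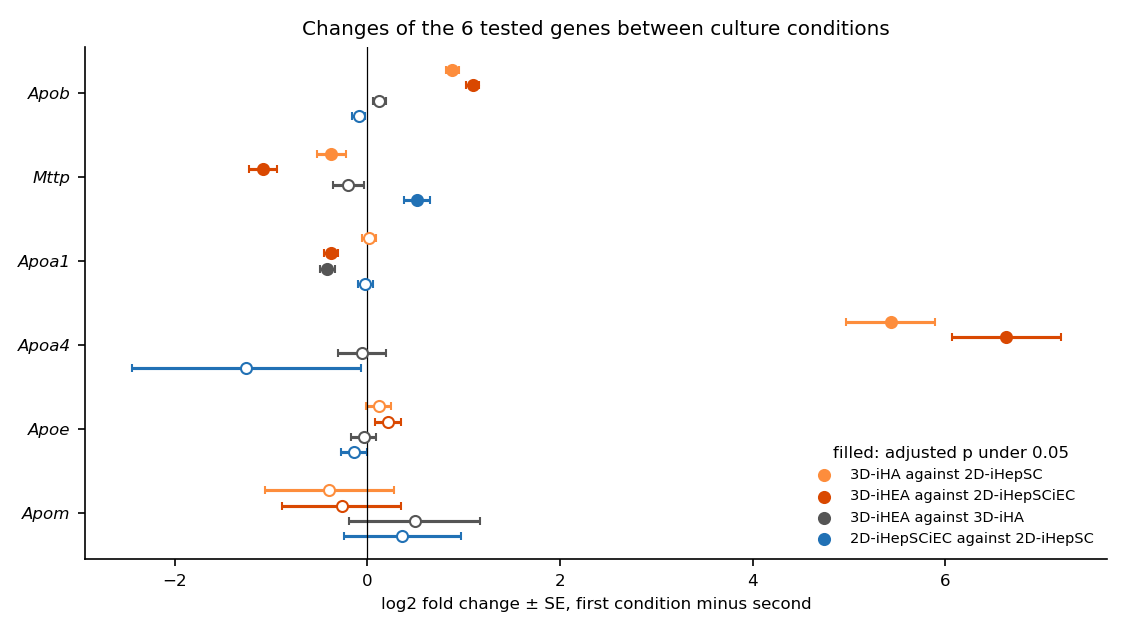
Points are log2 fold changes with SE for the 6 genes that passed the filter, in 4 comparisons of 2 libraries against 2, and filled points have an adjusted p under 0.05. *Apoa4* and *Apob* lie to the right of 0 in both comparisons of 3D with 2D and *Mttp* to the left, while the points for *Apoe* and *Apom* are all open.

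*Apoa2*, *Apoc3* and *Apoc1* encode small exchangeable apolipoproteins that are abundant in adult liver, and they stayed near or at the floor in culture. *Apoa2*, the second protein of high density lipoprotein, held 2, 1, 0 and 0 counts in 2D and 2, 4, 7 and 6 in 3D, against 190405 and 198694 in adult liver and 16440 and 14779 in fetal liver. *Apoc3*, an inhibitor of triglyceride clearance, held 5, 0, 2 and 0 counts in 2D and 15, 9, 3 and 7 in 3D, against 53208 and 54148 in adult and 34 and 28 in fetal liver. Both genes were under the filter in the fits of the cultures. Without the filter, edgeR gave adjusted p = 0.0114 for *Apoa2* and 0.0114 for *Apoc3* in 3D against 2D, and the ratios of summed counts were 6.85 (95% interval 2.02 to 36.2) and 5.26 (2.29 to 14.1), counting error only. For *Apoc3* the libraries of 3D and 2D overlapped, since the first 2D-iHepSC library had more counts than the first 3D-iHEA library. *Apoc1*, a modulator of lipase activity and receptor uptake, had 0 counts in 7 of the 8 culture libraries and 8 in the first 2D-iHepSC library. Adult liver was at least 21929-fold and fetal liver at least 685.3-fold above the 3D libraries, computed against 3 counts per library. The first 2D-iHepSC library also held 210 counts of *Alb*, 22 of *Fgb* and 17 of *Cps1*, where the second held 9, 0 and 3, and 5 of *Apoa5* against 0. The part of these transcripts in its *Apoc1* and *Apoc3* counts was not tested.

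*Apoe*, which directs remnant particles to uptake receptors, was low in all cultures. It had 5.06 and 5.14 CPM in 2D-iHepSC, 4.55 and 4.94 CPM in 2D-iHepSCiEC, 5.62 and 5.64 CPM in 3D-iHA, and 5.55 and 5.56 CPM in 3D-iHEA. The fibroblasts had 181.2 and 199.7 CPM, far above every culture library. *Apoe* was lower in 2D-iHepSC than in fibroblasts by a log2 fold change of -5.24 (SE 0.11, adjusted p = 1.26e-15, edgeR), a factor of 37.7. All 4 libraries from 3D were above the 4 from 2D, but the difference of 0.16 (SE 0.09, adjusted p = 0.126, edgeR) was not called. Fetal liver had 1150 and 1076 CPM and adult liver 16035 and 16445 CPM. Fibroblast markers went the same way as *Apoe*, from 28680 to 30403 summed CPM in fibroblasts to 2.4 to 12.6 in the cultures, whereas 6 macrophage markers summed to 3.45 to 4.31 CPM in fibroblasts and 21.6 to 27.5 CPM in the cultures. Nearly all of the latter was *Cd68*, with a mean of 23.9 CPM in the cultures, and *Marco*, *C1qa* and *C1qb* were at 0 there. Their part in the *Apoe* values was not tested.

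*Apoh*, a plasma glycoprotein that binds phospholipids, and *Apom*, the carrier of sphingosine-1-phosphate on high density lipoprotein, had few counts in fibroblasts and cultures alike. *Apoh* held 15 and 16 counts in fibroblasts, 10 and 7 in 2D-iHepSC, and 1 to 4 in the other culture libraries, against 61762 and 63170 in adult liver. *Apom* held 9 and 6 counts in fibroblasts and 3 to 13 in the cultures, against 16106 and 17254 in adult and 8817 and 7795 in fetal liver. *Apom* had log2 fold changes of -0.33 in 3D against 2D (SE 0.46, adjusted p = 0.527, edgeR) and 0.13 in 2D-iHepSC against fibroblasts (SE 0.54, adjusted p = 0.834, edgeR). Both SE were larger than the changes themselves, so no change is read from them. The gene *Apoh* overlaps the start region of *Prkca* on the opposite strand, which held 2599 to 4218 counts in the cultures and 210 and 234 in adult liver.

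Each 3D culture was also compared with its own 2D culture, and these 2 comparisons share no library. In 3D-iHA against 2D-iHepSC, 2 of the 6 tested members were called higher and 1 lower, where 72.3% of all tested genes were called, 36.9% higher and 35.3% lower. In 3D-iHEA against 2D-iHepSCiEC, 2 were called higher and 2 lower, where 70.9% were called, 36.0% higher and 34.9% lower. *Apob* and *Apoa4* were the higher genes in both, *Mttp* was lower in both, and *Apoa1* was called lower in the second and not in the first. Whether the 2 changes of a gene differ was tested directly by the interaction term, for which 3.14% of all tested genes were called (1.52% higher and 1.62% lower) and 0 of the 6 members by edgeR. The interaction was -0.39 for *Apoa1* (SE 0.11, adjusted p = 0.0766, edgeR), -0.71 for *Mttp* (SE 0.21, adjusted p = 0.098, edgeR) and 0.21 for *Apob* (SE 0.10, adjusted p = 0.318, edgeR), and all 3 had an unadjusted p under 0.05. By the Wald test of DESeq2, *Apoa1* was called (adjusted p = 0.00944). The alternatives counted next overlap, since the replicate block also leaves out the unnumbered 3D-iHEA library. Over 15 alternatives, *Apoa1* was called in 5 (adjusted p from 3.55e-05 to 0.352), *Mttp* in 3 (0.00293 to 0.302) and *Apob* in 1 (0.00736 to 0.664).

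Cultures with endothelial cells were also compared with those without. Each call of a member in these comparisons was lost without some of the libraries compared. In 2D-iHepSCiEC against 2D-iHepSC, 1 of 6 was called higher, where 8.17% of all tested genes were called, 4.26% higher and 3.92% lower. This was *Mttp*, 1.43-fold higher (log2 fold change 0.52, SE 0.14, adjusted p = 0.0388, edgeR), and the call was lost without each of the 4 libraries compared (adjusted p from 0.116 to 0.232, edgeR) and by the Wald test of DESeq2 (adjusted p = 0.0719). In 3D-iHEA against 3D-iHA, 1 of 6 was called lower, *Apoa1*, where 2.26% of all tested genes were called, 1.19% higher and 1.07% lower. *Apob* was 0.12 higher on the log2 scale (SE 0.07, adjusted p = 0.513, edgeR) and among 15 alternatives was called in 1, without the first 3D-iHEA library (0.23, adjusted p = 0.0145, range 0.0145 to 0.99). *Apoa4* and *Apoe* differed by -0.06 (SE 0.25) and -0.04 (SE 0.13) and were not called. In 2D, the share of all calls that were higher was 52.1% with TMM and 64.6% with total counts alone. It was 44.35% with all 14 libraries in the fit and 46.8% by the Wald test. In 3D, the share was 52.8% with TMM and 61.5% with total counts alone.

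Of the 10 genes, *Apob* and *Apoa1* were near 0 in fibroblasts and abundant in 2D-iHepSC. In a fit of all 14 libraries, which tested 14121 genes and all 10 members, 2 members were called higher and 2 lower in 2D-iHepSC against Fib, where 83.9% of all tested genes were called, 45.7% higher and 38.2% lower. *Apoa2*, *Apoa4*, *Apoc1*, *Apoc3*, *Apoh* and *Apom* had at most 31 summed counts in either condition. All of these but *Apom* passed the filter of this fit only through the livers, so nothing is read from the count. *Apob* was higher by a fitted log2 fold change of 14.26 (SE 0.27) and *Apoa1* by 12.20 (SE 0.22), from 1 and 4 summed counts in fibroblasts to 26020 and 20768. The scaled ratio of *Apob* counts had a 95% interval of 4556 to 1002680, and that of *Apoa1* counts of 1978 to 18592, counting error only. *Apoe* and *Mttp* were the lower genes. *Apoa2*, *Apoa4* and *Apoc3* held 3, 3 and 5 counts over the 2D-iHepSC libraries and 0 in fibroblasts, and were not called (adjusted p = 0.0525, 0.0525 and 0.0517, edgeR). *Apoc3* was called by other settings, among them the Wald test of DESeq2 (adjusted p = 0.0282, range over 19 alternatives 0.00849 to 1), while all its 5 counts came from the first 2D-iHepSC library. *Apoc1* was called lower without that library (adjusted p = 0.0119, edgeR), where the remaining 2D-iHepSC library has 0 counts, and *Apoh* was called lower by the Wald test of DESeq2 (adjusted p = 0.0297) and without either fetal library (adjusted p = 0.0277 and 0.0438, edgeR).

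Against fetal liver, 3D-iHA had 1 member called higher and 9 lower, where 85.6% of all tested genes were called, 42.4% higher and 43.2% lower. *Apoa2*, *Apoc1*, *Apoc3* and *Apoh*, all lower, were tested only because of their liver counts, and *Apoa4* only because of its counts in adult liver and in 3D, so the counts of members are no support. The higher one was *Apoa4*, with 131 summed counts against 1, a scaled ratio of 124.5 (95% interval 22 to 4957, counting error only). *Apob* came nearest to the fetal level, at 781.5 ± 1.78 CPM against 1019 ± 147.4 CPM (SD, n = 2 each), with a difference of -0.41 on the log2 scale (SE 0.10, adjusted p = 0.00136, edgeR). *Apoa1* was lower by -2.12 (SE 0.10), *Mttp* by -4.05 (SE 0.11) and *Apoe* by -7.65 (SE 0.12). *Apoc3*, low in fetal liver as well, was lower by -1.46 (SE 0.39, adjusted p = 0.00293, edgeR). *Apoa2*, *Apoh* and *Apom* had fitted log2 fold changes from -12.38 to -10.50. *Apoc1* had 0 counts in 3D-iHA and was at least 717.5-fold higher in fetal liver, computed against 3 counts per library. Erythroid genes summed to 39223 to 39599 CPM in fetal liver and at most 0.667 CPM in the cultures, so the fetal values include blood-forming cells, and their part was not tested.

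Against adult liver, all 10 members were lower in 3D-iHA, where 84.9% of all tested genes were called, 45.7% higher and 39.2% lower. The count is partly set by the filter, which *Apoa2*, *Apoa4*, *Apoc1*, *Apoc3* and *Apoh* passed only through the livers. *Apob* differed least, with a log2 fold change of -3.83 (SE 0.11), followed by *Apoa1* with -5.47 (SE 0.11), *Apoa4* with -6.09 (SE 0.12) and *Mttp* with -6.68 (SE 0.11). *Apoe* was lower by -12.97 (SE 0.14). A few genes take much of the adult liver RNA (*Alb* alone took 22.5% to 23.6% of counts), and scaling matters here. With total counts alone, the median of all genes moved from 0.13 to 1.56 and the share of calls that were higher in 3D-iHA from 53.9% to 80.2%. The 10 members stayed lower, with -2.39 for *Apob* and -4.04 for *Apoa1*.

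Between the 2 tissues, all 10 members were higher in adult than in fetal liver, where 83.7% of all tested genes were called, 40.0% higher and 43.8% lower. Without the adult libraries, *Apoa4*, *Apoc1* and *Apoc3* would not have passed the filter, so the count is no support. The differences were most marked for *Apoa4* and *Apoc3*, with log2 fold changes of 12.69 (SE 0.22) and 11.84 (SE 0.16), the former from 1 count in fetal liver (scaled ratio 3046, 95% interval 546.4 to 120345, counting error only), and least for *Apom*, 2.10 (SE 0.08), and *Mttp*, 2.62 (SE 0.08). With total counts alone, the median of all genes moved from -0.10 to -1.52 and the share of higher calls from 47.7% to 17.7%. All 10 members were still higher, from 0.67 for *Apom* to 11.30 for *Apoa4*. The adult libraries enter both this comparison and the one with 3D-iHA, and the fetal libraries likewise.

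The order of the genes by level per exon length also differed. In all 4 culture conditions, *Apoa1* came first, with means from 211.8 to 278.6 CPM per kb, followed by *Apob*, with 28.7 to 62.1 CPM per kb, and *Apoe*, with 2.22 to 2.63 CPM per kb, each above the next in both libraries of a condition. *Mttp* came next in 2D, with 1.22 and 1.79 CPM per kb, and was passed by *Apoa4* in 3D, where *Apoa4* had 1.27 and 1.24 CPM per kb and *Mttp* 0.955 and 0.853. Below these, *Apom*, *Apoh*, *Apoc1*, *Apoa2* and *Apoc3* had levels of at most 0.463 CPM per kb in any culture condition, and several neighbours in this part of the order overlapped between libraries. In adult liver *Apoa2* was first with 10448 CPM per kb, followed by *Apoe* with 7596 and *Apoa1* with 4430, and *Apob*, at 285.1 CPM per kb, was above *Mttp* and *Apoa4* and below the other 7. In fetal liver the order began with *Apoa1* at 1188 and *Apoa2* at 1076 CPM per kb.

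Along the chromosomes, the members that are neighbours did not share their levels in culture. The *Apoa1*, *Apoc3*, *Apoa4* and *Apoa5* cluster spans 43.3 kb of chromosome 9. In 3D-iHA, *Apoa1* had a mean of 344.3 CPM, *Apoc3* 0.421 CPM, *Apoa4* 2.30 CPM and *Apoa5* 0.0173 CPM, whereas adult liver had 5475, 1548, 56.4 and 467.3 CPM of the 4 genes. *Apoc3* starts 7.06 kb and *Apoa4* 12.1 kb from the start of *Apoa1*. Next to this cluster, the widely expressed gene *Zpr1* had 37.5 to 88.2 CPM in all 7 conditions. In the *Apoe*, *Apoc1*, *Apoc4* and *Apoc2* cluster, which spans 27.6 kb of chromosome 7, *Apoc2* held no count in any culture and *Apoc4* 1 count in 2D-iHepSC. The flanking gene *Tomm40* had 25.8 to 115 CPM in the 7 conditions.

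**Figure D4:**
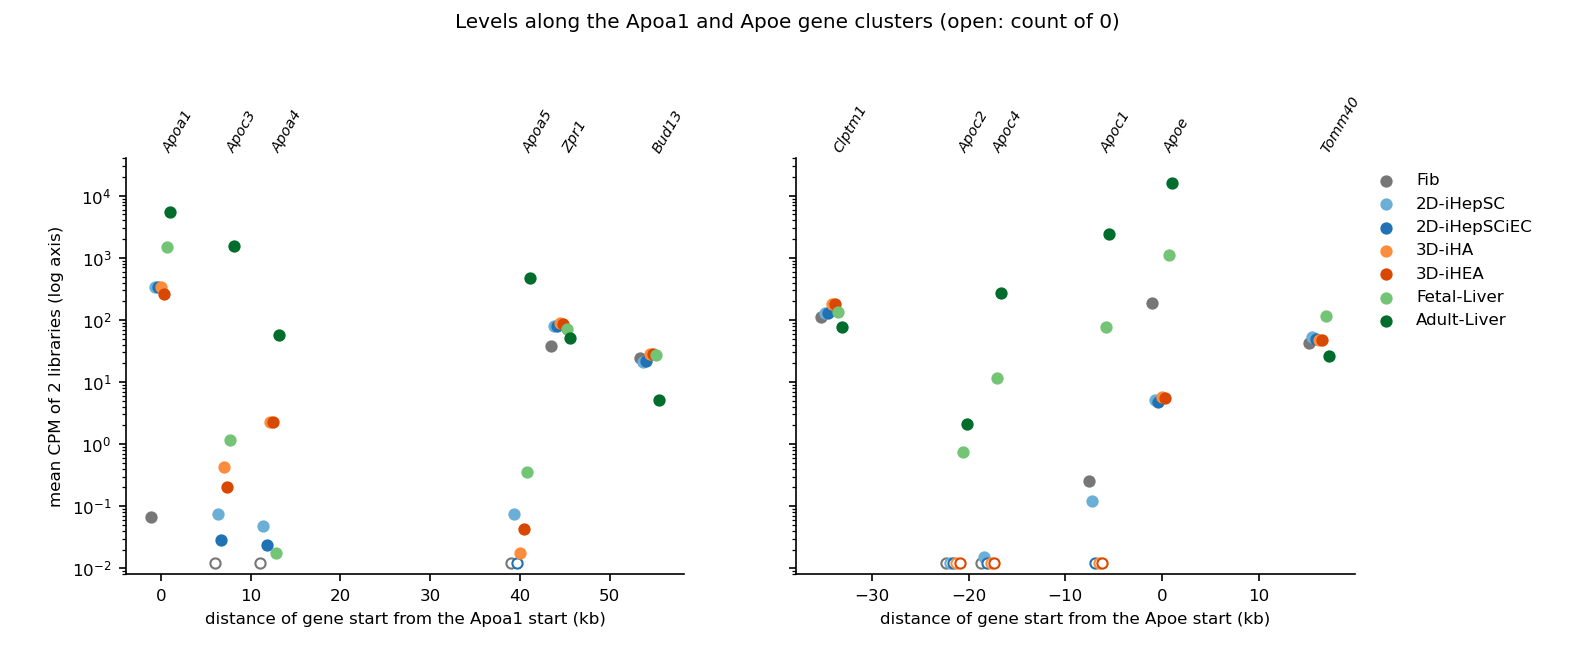
Mean CPM of 2 libraries per condition on a log axis is plotted against the distance of each gene's start from that of *Apoa1* (left) or *Apoe* (right) in kb, with points of the 7 conditions set slightly apart sideways and open symbols for counts of 0. In the cultures (blue and orange), *Apoa1* stands far above its 3 cluster neighbours, while *Apoc1*, *Apoc4* and *Apoc2* are at or near 0 beside *Apoe*.

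Likeness of pattern was measured as the root mean square difference of centred log2 CPM over the 7 conditions among 14121 genes. The genes most like *Apob* were *Apoa1* (0.846), *Ugt2b34* (1.28) and *Hnf4a* (1.29), and those most like *Apoa1* were *Apob* (0.846), *Hnf4a* (1.41) and *Hgfac* (1.41). *Hnf4a* counts can include the lentiviral copy. *Apoa4* was most like *9030619P08Rik* (0.528), *Lrg1* (0.831) and *Saa1* (0.878), all of them low in 2D and fetal liver and higher in 3D and adult liver. For example, *Lrg1* had means of 0.407 and 0.625 CPM in 2D, 26.1 and 16.7 CPM in 3D, 282 CPM in adult and 0.072 CPM in fetal liver. *Apoe* was most like *Cyp2d22* (0.355), *Fxyd1* (0.456) and *Rarres2* (0.771), and *Apoc3* like *Prlr* (0.711), *Slco1b2* (0.754) and *Rdh7* (0.767). *Mttp* was closest to *Plekhb1* (0.326), *Tmem86b* (0.451) and *St6gal1* (0.455). In the culture conditions, *Cyp2d22*, *Fxyd1* and *Rarres2* had means of at most 0.0525 CPM, and *Plekhb1* of at most 0.133 CPM. *Apoe* and *Mttp* were well above these levels there, so these likenesses say little about the cultures. Among the members themselves, *Apoc1* and *Apoh* were the most alike (0.514), followed by *Apoa1* and *Apob*. *Apoa2*, *Apoa4*, *Apoc1*, *Apoc3* and *Apoh* entered this measure only through their liver counts, and *Apoc1* and *Apoh* had at most 10 counts in any culture library, so their likeness rests mostly on high liver values beside values near the floor. *Apoa2* was most like *Serpina1b* (0.493), *Fgb* and *Ambp*, *Apoc1* like *Car3* (0.418), *Apoh* and *Itih4*, *Apoh* like *Apoc1* and *Car3*, and *Apom* like *C1qb* (0.232), *C1qc* and *Qprt*. *C1qb* and *C1qc* had no count in any culture.

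Of 86 other genes of lipoprotein metabolism, 85 were in the table and 64 were tested in 3D against 2D, with 29 called higher, 16 lower and 19 not called, against 75.9% called over all genes tested, 38.7% higher and 37.2% lower. This background holds for each list below, and none of their counts is read as particular to a list. *Saa1*, *Cideb* and *Mlxipl*, all called higher, passed the filter only through the 3D libraries. The median log2 fold change of the 64 tested genes was 0.12 against 0.01 over all genes. Of 7 tested apolipoprotein-related genes, 4 were higher and 1 lower. *Clu*, apolipoprotein J, rose from 633.9 ± 79.1 to 7870 ± 1409 CPM (SD, n = 4 each), and *Saa1*, an acute phase apolipoprotein, rose from 0.194 ± 0.295 to 10.8 ± 2.63 CPM (SD, n = 4 each). *Apobec1*, which edits the *Apob* transcript, was at 61.1 ± 1.65 CPM in 2D and 57.8 ± 6.19 CPM in 3D and was not called there, but was lower in 3D-iHA than in 2D-iHepSC (-0.24, adjusted p = 0.00187, edgeR). *Apol9a* and *Apol9b*, a near-identical pair whose reads may be split, rose by log2 fold changes of 0.96 and 1.00.

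Of 21 tested genes that act in assembly and secretion, 9 were higher and 4 lower in 3D, where 75.9% of all genes were called, with a median of 0.05. *Dgat2*, an enzyme of triglyceride synthesis, rose from 12.3 ± 1.31 to 105.2 ± 6.72 CPM (SD, n = 4 each), and the acyl-CoA synthetase *Acsl5* by a log2 fold change of 3.38 (SE 0.09). *Tm6sf2*, a factor for loading of very low density lipoprotein, rose by 1.10 (SE 0.14), and *P4hb*, the subunit that pairs with MTP, by 0.34 (SE 0.04). *Sar1b*, a GTPase of the vesicles that carry large lipoproteins, was not called (0.07, SE 0.05), and *Sec23a* and *Sec24d* of the same coat were lower (-0.53 and -0.82). *Lpin1*, a phosphatase of glycerolipid synthesis, had the largest decrease of this list, -1.48 (SE 0.05).

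All 13 tested genes for receptors and uptake were called, 7 higher and 6 lower, where 75.9% of all genes were called. *Lrp8* was lower by -2.18 (SE 0.05) and *Scarb1*, the receptor for high density lipoprotein, by -1.21 (SE 0.10). *Vldlr*, *Sort1*, *Lrp1* and *Mylip* rose by 1.06, 1.38, 1.68 and 1.75. Of the 3 tested efflux genes, 2 rose, among them *Abca1*, which transfers lipid to ApoA1, from 0.422 ± 0.278 to 30.2 ± 6.21 CPM (SD, n = 4 each). For the remodelling enzymes and their inhibitors, 1 of 7 was higher and 2 lower, with *Lcat* at -1.41 (SE 0.19) and *Angptl4* at -1.52 (SE 0.19).

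Of 13 tested regulators, 6 were higher and 3 lower, where 75.9% of all genes were called. *Hnf4a* was at 214.2 ± 23 CPM in 2D and 202 ± 12.4 CPM in 3D and was not called there, but was lower in 3D-iHA than in 2D-iHepSC (-0.30, adjusted p = 0.000119, edgeR). *Creb3l3*, an activator of *Apoa4* and other apolipoprotein genes, rose from 0.268 ± 0.13 to 2.76 ± 0.758 CPM (SD, n = 4 each). *Srebf2*, a regulator of cholesterol synthesis, was lower by -0.67 (SE 0.04). In 3D-iHEA against 3D-iHA, 2 of the 64 genes were called, where 2.26% of all genes were, *Apobec1* higher (0.24, SE 0.06) and *Soat1* lower (-0.25, SE 0.05). In 2D-iHepSCiEC against 2D-iHepSC, 2 were higher, *Lrp1* and *Rxra*, and 4 lower, among them *Soat1*, *Angptl4* and *Hnf4a*, where 8.17% of all genes were called. In the interaction, 1 of the 64 was called higher, *Hnf4a* (0.40, SE 0.07), and 3 lower, *Sort1*, *Cubn* and *Rxra*, where 3.14% of all genes were called.

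**Figure D5:**
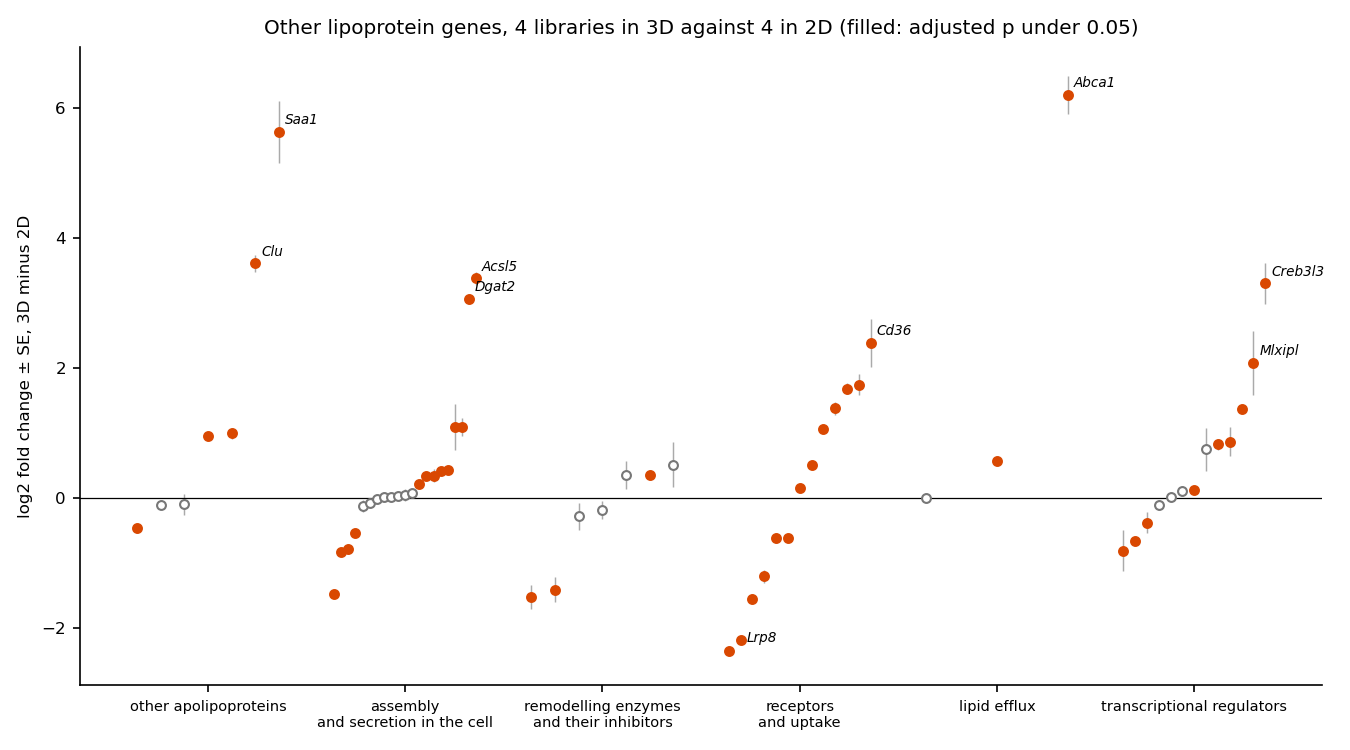
Each point is 1 tested gene of 6 lists of other lipoprotein genes, with its log2 fold change and SE in 3D against 2D (4 libraries each), and filled points have an adjusted p under 0.05. *Abca1*, *Saa1*, *Clu*, *Acsl5*, *Dgat2* and *Creb3l3* lie above 3, *Lrp8* lies under -2, and the genes for assembly and secretion are spread from -1.48 to 3.38.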

How the data were processed

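RNA-seq counts per gene were analysed for 14 libraries of 7 conditions. According to the submitters' notes, the authors trimmed reads with Trimmomatic 0.36, aligned them to mm10 with HISAT2 and used HTSeq and Cufflinks. The deposited table holds raw counts, without the later equalization and log transformation of the study's methods. The annotation release, the use of strand and the treatment of reads with several alignments are not given in the sources used here, and any of these could move counts between overlapping or near-identical genes. No column of the authors' own comparisons was used.

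Groups followed the labels. Genes whose log2(count + 1), averaged over the libraries of a fit, reached 3 were tested with the quasi-likelihood method of edgeR 4.0.16 (R 4.3.3), TMM factors and Benjamini-Hochberg adjustment, with a call at an adjusted p under 0.05. The 4 libraries from 3D were set against the 4 from 2D, the 8 culture libraries were fitted with a term per condition, and all 14 were fitted likewise for comparisons with fibroblasts and livers. Standard errors were derived from the log2 fold change and its F value. Ratios of summed counts carry exact 95% binomial intervals, and detection floors are 3 counts, both for counting error only. Levels per kb used the exon length of GENCODE M21. Alternatives were testing all genes, a stricter limit of 5, the size factors or the Wald test of DESeq2 1.42.0, total counts alone, a replicate block and the omission of each library. In simulated counts, 200 genes with counts well above the floor were all changed by the same fold. Of these, 97.5% were recovered for 3D against 2D among 13409 genes. For 3D-iHEA against 3D-iHA 88.5% were recovered, and 90.5% for adult against fetal liver. Of the calls, 8.45%, 5.35% and 5.24% were false. Far more genes were called in the data, so these rates do not carry over to it or to members near the floor. The 10 genes are all named in every comparison, and the other genes were counted by list, some of which are not reported here by name. The members and the lists were chosen with earlier results of these data known. Other tools were Python 3.11.15, pandas 2.3.3, scipy 1.17.1 and matplotlib 3.10.9.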

Additional observations from a re-analysis of the deposited data

Results flagged for a closer look

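In groups of 4 libraries, the gap of the highest or lowest library to the next was compared with the range of the group (Dixon's criterion at its 95% critical value). Of 19 groups tested, 3 went past it, and chance alone exceeds it in about 1 of 20 groups. The unnumbered 3D-iHEA library had 930.6 CPM of *Apob*, with the other 3D libraries at 780.3 to 798.8 CPM. The first 3D-iHEA library had 4.435 CPM of *Mttp*, with the other 3D libraries at 5.929 to 6.147 CPM. The first 2D-iHepSC library had 0.2424 CPM of *Apoc1*, with 0 in the other 2D libraries. With 3 libraries at 0, any count in the fourth goes past the criterion, so this one is not read against the chance rate. Each group of 4 holds 2 conditions. The 2 libraries of 3D-iHEA also differed more from each other over all genes (chi-square per gene 10.9) than those of the other cultures (3.31 to 3.49).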

How the results depend on the processing

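*Apob* kept its direction and its call in 3D against 2D under all 14 alternatives, with log2 fold changes from 0.93 to 1.02, and so did *Mttp*, from -0.84 to -0.63. Counts of members called moved with the filter. Without a filter, 4 members were higher in 3D against 2D, where 11093 of 20841 genes were called. *Apoa2* and *Apoc3* were among the 4, with few counts in 2D. In the interaction, 2 were lower, where 901 of 20841 genes were called. A filter of at least 5 removed *Apoa4* and left 1 higher in 3D against 2D, where 9196 of 11667 genes were called. It left 1 in 3D-iHA against 2D-iHepSC and 1 in 3D-iHEA against 2D-iHepSCiEC, where 8867 and 8659 of 11667 were called. In 3D-iHA against fetal liver it left 0 higher, where 10299 of 11819 were called. By the Wald test, 0 members were lower in 3D-iHA against 2D-iHepSC, 0 higher in 2D-iHepSCiEC against 2D-iHepSC and 1 lower in the interaction. All genes called there were 8876, 925 and 449 of 13409. Genes called in 3D-iHEA against 3D-iHA went from 303 to 881 without a filter, and in the interaction from 421 to 901. Replicate numbers did not pair the libraries (correlations of deviations from -0.0703 to 0.0476). With the replicate block, which drops the unnumbered library, calls were 617 in 3D-iHEA against 3D-iHA, 1945 against 1096 in 2D-iHepSCiEC against 2D-iHepSC, and 772 in the interaction, where 2 members were lower, *Apoa1* and *Mttp*.

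Uncalled values changed sign for *Apoa1* in 3D-iHA against 2D-iHepSC with all 14 libraries (-0.0264) and in 2D-iHepSCiEC against 2D-iHepSC with total counts (0.0054), for *Apom* in 3D-iHEA against 2D-iHepSCiEC with the replicate block (0.40), and for *Apom* in 2D-iHepSC against fibroblasts with the stricter filter (-0.0341). The causes were not tested.

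With 1 library left out, the lone library of a condition is assumed to vary like the others. Calls then ranged from 93 to 723 in 3D-iHEA against 3D-iHA (lowest without the first 3D-iHA library, highest without the first 3D-iHEA library), from 250 to 2014 in 2D-iHepSCiEC against 2D-iHepSC (without the first 2D-iHepSCiEC and the first 3D-iHEA library) and from 129 to 959 in the interaction. Members called lower ranged from 1 to 2 in 3D against 2D, where 9798 to 10003 of all genes were called in either direction. In several comparisons fitted with 2 libraries per condition, the members called also changed with the library left out. The interaction and 2D-iHepSC against fibroblasts were among these. Such a fit leaves 1 library in a condition, so these counts of members are not read. Values that changed sign ranged for *Apoa1* from -0.0645 to 0.0736 (3D-iHA against 2D-iHepSC) and from -0.088 to 0.0501 (2D-iHepSCiEC against 2D-iHepSC), for *Mttp* from -0.44 to 0.0282 and for *Apoa4* from -0.13 to 0.0048 (both 3D-iHEA against 3D-iHA), and for *Apoa4* from -0.0116 to 3.61 in the interaction. For *Apom* they ranged from -1.35 to 0.17 (3D-iHA against 2D-iHepSC), -0.27 to 0.33 (3D-iHEA against 2D-iHepSCiEC), -0.0671 to 1.45 (3D-iHEA against 3D-iHA), -0.0868 to 0.36 (2D-iHepSCiEC against 2D-iHepSC), -0.43 to 1.09 (interaction) and -0.43 to 0.59 (2D-iHepSC against fibroblasts). Depth limits *Apoa2*, *Apoc1*, *Apoc3*, *Apoh* and *Apom* in culture, which had at most 15 counts per library.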
